A study of Mus musculus with 4 samples.

Results

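Mouse hearts were examined for 10 genes of the circadian clock, chosen by a fixed list of gene symbols: Arntl, Clock, Npas2, Per1, Per2, Per3, Nr1d1, Nr1d2, Dbp and Bhlhe41. All 10 were found among the 12408 genes of the expression tables. The data were RNA sequencing libraries from the hearts of 4 C57BL/6 mice, each 3 months of age, with 1 mouse and 1 library in each group. All 4 mice carried floxed alleles of WW45, the Hippo pathway scaffold gene listed as Sav1. The 2 mice labelled cKO carried, in addition, a Cre transgene under the alpha-MHC promoter, which is active in cardiomyocytes, so the other cells of those hearts keep the gene. In each genotype 1 mouse was at baseline and the other had 4 weeks of transverse aortic constriction (TAC), which narrows the aorta and loads the left ventricle. No library is labelled as sham-operated or as Cre without floxed alleles, so surgery and load, and Cre and deletion, cannot be told apart.

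The clock runs as a loop of transcription and repression in nearly every cell. BMAL1, the product of Arntl, pairs with CLOCK or NPAS2, binds E-boxes and drives the Per, Cry, Nr1d and Dbp genes. The PER and CRY proteins then block that activation, and REV-ERB alpha and beta, from Nr1d1 and Nr1d2, repress Arntl. In mouse heart, Arntl transcripts are known to peak around the change from night to day, and Dbp and Per3 transcripts late in the light phase. The hour at which a heart is collected therefore sets the level of these genes. The labels give no hour of collection, and with 1 mouse in each group, hour, animal and group cannot be told apart in any result below.

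Promoter sequence is shown for the members whose window holds a motif of the clock loop, because the loop acts on its own genes through these elements. RefSeq's promoter table (GRCm38.p6, the assembly also called mm10) matched 9 of the 10 members, in 13 windows. The 250 bases before each start site were searched on both strands for the E-box, spelled CACGTG, and for a variant of it that ends in another base, spelled CACGTT. The D-box, which DBP and its relatives bind, was spelled TTATGTAA. The RORE, which REV-ERB proteins bind, was spelled TAGGTCA and, as an alternative form, TGGGTCA. Among all 32851 windows of that length, 6.02% held the E-box, 3.85% the variant, 0.819% the D-box and 5.38% a RORE. The D-box was found 2 times for Per3, at -205 and -158 from the start site; E-boxes were found for Per1 (-166) and Bhlhe41 (-153), the E-box variant for Nr1d1 (-28), and a RORE for 0 of the 9 members. These matches describe the letters of the window and show no binding. A site outside the 250 bases, or spelled otherwise, would be missed, so the 0 for the RORE does not show that Arntl or another member lacks one. No site overlapped another. The motifs stand in capitals.
Per3, chr4:151044666-151044915, minus strand: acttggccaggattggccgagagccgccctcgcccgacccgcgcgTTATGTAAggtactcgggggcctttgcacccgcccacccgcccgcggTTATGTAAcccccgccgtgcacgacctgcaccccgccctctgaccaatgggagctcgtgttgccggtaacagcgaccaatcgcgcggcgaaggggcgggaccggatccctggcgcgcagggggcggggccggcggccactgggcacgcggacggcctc
Per1, chr11:69098699-69098948, plus strand: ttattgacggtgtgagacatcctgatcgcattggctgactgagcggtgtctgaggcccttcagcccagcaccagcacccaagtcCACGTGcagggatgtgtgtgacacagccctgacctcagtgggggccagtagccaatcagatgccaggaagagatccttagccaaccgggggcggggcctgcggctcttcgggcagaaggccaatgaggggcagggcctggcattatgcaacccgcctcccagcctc
Bhlhe41, chr6:145865421-145865670, minus strand: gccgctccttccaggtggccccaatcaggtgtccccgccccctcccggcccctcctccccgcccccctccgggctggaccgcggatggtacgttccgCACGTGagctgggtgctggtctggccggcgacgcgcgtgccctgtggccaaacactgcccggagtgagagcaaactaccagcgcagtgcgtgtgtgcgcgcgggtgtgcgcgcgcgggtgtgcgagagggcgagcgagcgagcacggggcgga
Nr1d1, chr11:98775378-98775627, minus strand: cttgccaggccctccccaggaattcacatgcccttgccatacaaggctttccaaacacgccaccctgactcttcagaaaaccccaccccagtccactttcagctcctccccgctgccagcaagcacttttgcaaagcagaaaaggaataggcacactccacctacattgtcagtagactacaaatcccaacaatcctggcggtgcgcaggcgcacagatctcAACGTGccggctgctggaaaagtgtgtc

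Depth was modest, from 1587840 reads in cKO baseline to 2796547 in CT baseline, and 1 read was worth 0.371 to 0.612 CPM, the read count scaled by library size. Levels and ratios carry 95% intervals for counting error, which do not cover the spread between mice. A ratio is called past the rule when the deposited log2 values are at least 2-fold apart and the counting interval of the ratio excludes 1. This is a rule of size with no replicate check, and it compares libraries rather than conditions. Cardiomyocyte markers summed to between 99353 and 125754 CPM with 9 of 9 measured, as the heart label requires, whereas the lung and lymphocyte lists had 1 measured gene each, with at most 2.18 CPM. Sav1, the check of the genotype labels, was at 49.3 CPM in CT against 39.8 in cKO at baseline, and at 35.4 against 46.2 under TAC. The latter difference runs against the labels, and neither interval of the cKO to CT ratio excluded 1 (0.590 to 1.09 and 0.941 to 1.81). A gene-level value cannot show the loss of the floxed exons. Genotype directions below follow the labels.

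Arntl was opposed to Dbp and Per3 across the 4 libraries. Arntl was highest in CT baseline, lower in cKO baseline and in cKO TAC, and lowest in CT TAC, and Dbp and Per3 had the reverse order. Arntl ranged 4.90-fold, Per3 6.35-fold and Dbp 7.64-fold on the deposited scale. Those ranges exceeded the ranges of 95.3%, 97.4% and 98.3% of all genes. Nr1d1 stayed within 1.14-fold, a range larger than that of only 2.43% of genes. The median log2 range of the 10 members was 1.31, against 0.80 over all genes.

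Among the activators, Arntl (chromosome 7, 113207465 to 113314126) had 157 reads, or 58.2 CPM (49.4 to 68.0), in CT baseline. It had 57 reads or 34.9 CPM (26.4 to 45.2) in cKO baseline, 49.5 reads or 26.9 CPM (19.7 to 35.2) in cKO TAC and 23 reads or 11.5 CPM (7.28 to 17.2) in CT TAC. Of the neighbours in this order, cKO baseline and cKO TAC did not differ beyond counting error (ratio interval 0.511 to 1.14). Clock, the partner of BMAL1, varied less, with 41.1 CPM in CT baseline, 36.1 in cKO baseline, 29.5 in CT TAC and 29.4 in cKO TAC. The intervals of neighbours in that order overlapped. Npas2, which can take the place of CLOCK in the pair, was split by genotype instead of following Arntl. In CT it was at 7.04 CPM (4.24 to 11.0) before and 5.49 (2.74 to 9.82) after TAC, against 15.3 (9.90 to 22.6) and 14.1 (9.24 to 20.7) in cKO. The 4 values rest on 11 to 26 reads.

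The 3 period genes, whose proteins repress the activators, did not move as a block. Per1 was at 128 CPM in CT baseline, 125 in cKO TAC and 110 in CT TAC, and cKO baseline stood apart at 72.8 (60.3 to 87.1). Per2 had few reads, and was at 8.53 CPM in CT baseline, 9.79 in cKO baseline and 19.6 (13.7 to 27.1) in cKO TAC, with CT TAC (24 reads, 7.68 to 17.8 CPM) between the last pair. Per3, whose window carries the pair of D-boxes printed above, had baseline levels of 4.70 CPM (2.57 to 8.24) in CT mice and 9.18 (5.14 to 15.1) in cKO mice. In the TAC libraries it was at 20.3 (14.2 to 27.7) in cKO and 32.4 (25.0 to 41.4) in CT. The baseline values rest on 12.7 and 15 reads and did not differ beyond counting error (ratio interval 0.845 to 4.35); the first is not a whole number of reads. Both TAC libraries thus lay above both baseline libraries for Per2 and Per3, with overlapping intervals for Per2 and for cKO in Per3, but not for Per1.

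The REV-ERB genes differed from each other. Nr1d1 was at 152 CPM in CT baseline, 146 in cKO TAC, 143 in cKO baseline and 133 in CT TAC, and all 4 counting intervals overlapped. Nr1d2 was highest in CT TAC at 151 CPM (134 to 169), followed by CT baseline at 96.7 (85.4 to 109), cKO TAC at 81.6 (69.0 to 95.7) and cKO baseline at 64.2 (52.5 to 77.7). For Nr1d2 both CT libraries therefore lay above both cKO libraries. Per kilobase of merged exon, Nr1d1 was the most abundant member with a mean of 46.7 CPM per kilobase, followed by Per1 at 19.3 and Nr1d2 at 18.2. At the other end stood Per3 at 1.73, Per2 at 2.13 and Npas2 at 2.19 CPM per kilobase. Nr1d1 shares 263 exonic bases with Thra on the opposite strand, and the strand setting of the counting is not given in the sources used here, so reads of the pair cannot be fully told apart.

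Dbp encodes a PAR bZIP factor that binds D-boxes and is among the clock's most direct outputs. It was at 9.64 CPM (6.30 to 14.1) in CT baseline, 17.7 (11.9 to 25.5) in cKO baseline, 34.8 (26.8 to 44.4) in cKO TAC and 76.9 (65.2 to 90.0) in CT TAC. Each step of this order exceeded counting error, since the ratio intervals of the 3 neighbouring pairs excluded 1. Dbp overlaps Sphk2 by 539 exonic bases on the opposite strand. At baseline Sphk2 was at 19.6 CPM in CT and 23.2 in cKO, and under TAC at 13.0 and 19.6, and its part in the Dbp values was not tested. Bhlhe41 encodes DEC2, a repressor that competes for E-boxes, and it was at 9.27 CPM (6.00 to 13.7) in CT baseline. The other libraries were higher, at 17.4 (11.9 to 24.6) in cKO TAC, 22.6 (15.9 to 31.2) in cKO baseline and 26.2 (19.8 to 34.6) in CT TAC. Its recovered reads were not whole in every library, as for Arntl and Per3.

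**Figure D1:**
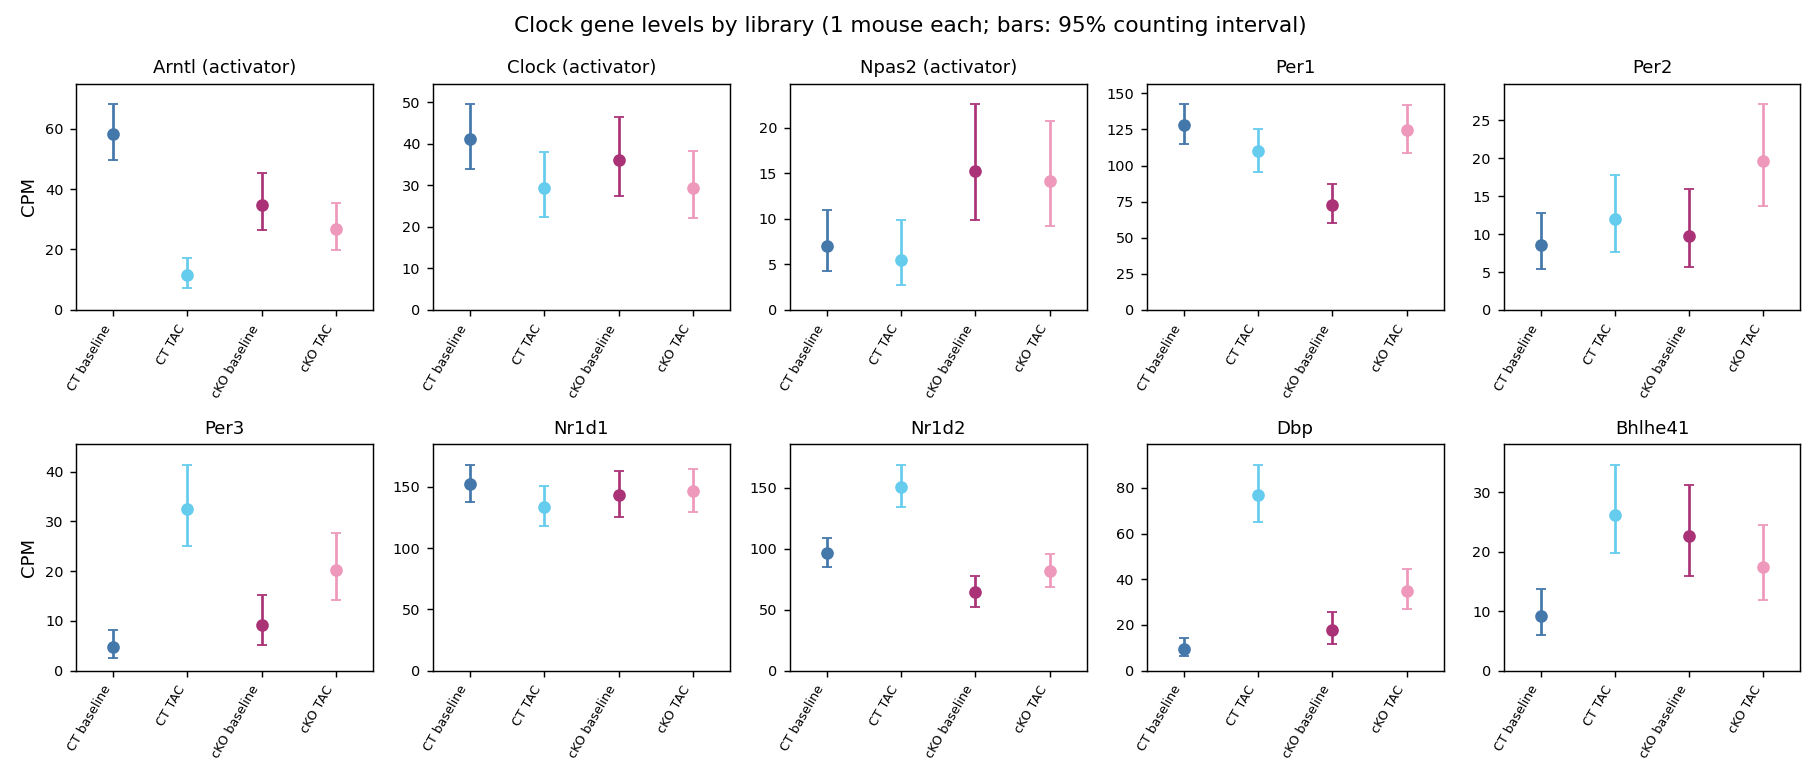
Level of each clock gene in CPM (linear axis from 0, 1 panel per gene) in the 4 libraries, 1 mouse each, with 95% counting intervals as bars. Arntl is at 58.2 CPM in CT baseline and 11.5 in CT TAC, where Dbp reaches 76.9, while Nr1d1 lies between 133 and 152 throughout.

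Since levels within 1 library share its depth and scaling, the opposition can be given as a difference inside each library. The deposited log2 level of Arntl minus that of Dbp was 2.53 in CT baseline (counting SE 0.31), 0.96 in cKO baseline (SE 0.33), -0.36 in cKO TAC (SE 0.27) and -2.69 in CT TAC (SE 0.32). In reads, there were 26 Dbp reads beside 157 Arntl reads in CT baseline and 154 beside 23 in CT TAC. The cKO libraries lay between the CT libraries in this difference. The mean log2 level of the 3 activators minus that of the other 7 members gave 0.00 in CT baseline, -0.19 in cKO baseline, -0.99 in cKO TAC and -2.14 in CT TAC, with counting SEs of 0.15 to 0.20. By the median in place of the mean, the values were 2.04 in CT and 0.61 in cKO at baseline, so the sign turned in cKO baseline, and -2.69 and -0.36 under TAC. In both TAC libraries the medians are the levels of Arntl and Dbp, so these values repeat the Arntl minus Dbp difference and add nothing to it. The other differences compare the same genes between libraries, whereas the medians fall on different genes. They say nothing of which gene is the more abundant.

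**Figure D2:**
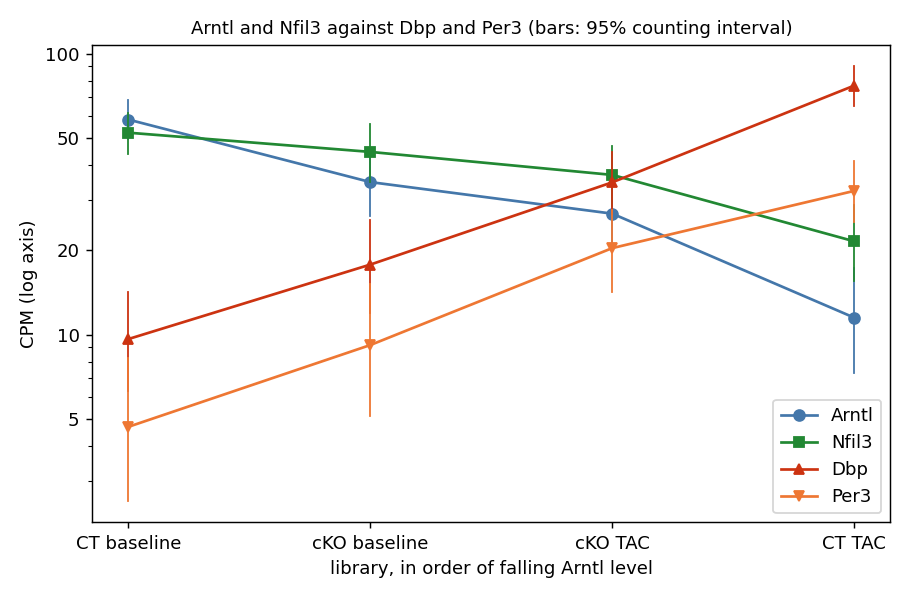
Levels of Arntl, Nfil3, Dbp and Per3 in CPM (log axis) in the 4 libraries, placed from left to right by falling Arntl, with 95% counting intervals as vertical lines. Dbp and Per3 are higher where Arntl and Nfil3 are lower, and Dbp spans 9.64 to 76.9 CPM.

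The first comparison was of TAC with baseline in CT mice, and it held the largest clock gene ratios. Arntl was 2.29 log2 units lower in the TAC library (ratio interval 0.121 to 0.307). Dbp was 2.93 higher (5.24 to 12.6), Per3 2.67 higher (3.68 to 13.3) and Bhlhe41 1.45 higher (1.74 to 4.79). From the top, Dbp ranked 45 and Per3 72 of the 12408 genes, and Arntl ranked 71 from the bottom. In all, 3 members were past the rule on the higher side and 1 on the lower side, or 4 of 10, where 10.7% of all genes were past it in either direction, 6.06% on the higher and 4.67% on the lower side. The median log2 ratio of the 10 members was 0.14, against 0.01 over all genes, because members lay on both sides. Nr1d2 (0.64, 1.32 to 1.85) and Clock (-0.48, 0.513 to 0.990) had intervals that excluded 1, as had 31.6% of all genes, but were under 2-fold. Npas2 (-0.33), Per1 (-0.22), Per2 (0.47) and Nr1d1 (-0.19) did not differ beyond counting error.

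Fibroblast markers moved in the same pair, with 7 of 8 past the rule on the higher side, beside 6.06% of all genes. Their summed level was 1508 CPM in CT baseline and 5905 in CT TAC. Of 8 macrophage markers 1 was past the rule on that side, also beside 6.06%, and their sum went from 402 to 574 CPM. No defining marker of either list was at 0 in any library. The part of these cells in the clock gene ratios was not tested, and in bulk tissue fewer cells of a type and less RNA per cell cannot be told apart.

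In cKO mice the TAC library differed from baseline in the same direction for Arntl, Dbp and Per3, by smaller ratios. Per3 was 1.11 log2 units higher (ratio interval 1.17 to 4.30) and was the 1 member of 10 past the rule, where 6.52% of all genes were past it, 3.69% higher and 2.83% lower. With a pseudocount of 5 CPM its ratio was 0.84, under 2-fold. Per2 at 0.97 (1.08 to 3.86), Dbp at 0.95 (1.25 to 3.16) and Per1 at 0.77 (1.37 to 2.15) lay above counting error but under 2-fold, and 22.1% of all genes had intervals that excluded 1. Arntl was at -0.37, Clock at -0.29, Npas2 at -0.11, Bhlhe41 at -0.37, Nr1d1 at 0.03 and Nr1d2 at 0.34, each with an interval that included 1. The median of the members was 0.19 and that of all genes -0.00. The fibroblast list was again higher, at 7 of 8 past the rule, with sums of 2627 and 6895 CPM, and its part in these ratios was not tested.

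A fit over all 4 libraries with terms for surgery and genotype set 2 TAC mice against 2 baseline mice. Dbp rose by 1.94 on the log2 scale (SE 0.40, limma with Benjamini-Hochberg adjusted p = 0.0390) and Per3 by 1.89 (SE 0.41, limma adjusted p = 0.0471), each higher in 2 of 2 genotypes. These 2 of 10 members stand beside 226 genes called, or 1.82% of all genes, of which 1.3% were higher and 0.524% lower. In CT alone the differences were 2.93 and 2.67, and without either CT library they were 0.95 and 1.11, with no test. Arntl was lower under TAC in both genotypes by a mean of 1.33 log2 units without passing (log2 difference -1.33, SE 0.39, limma adjusted p = 0.124), and the adjusted p of the other 7 members lay above that. Neither call held without the genotype term (limma adjusted p = 0.126 for both genes), without the mean-variance trend (0.373 for Dbp and 0.343 for Per3), with scaling to total reads (0.0552 and 0.0596) or with a pseudocount of 5 CPM (0.0856 and 0.0865). Both held among genes with a mean of at least 5 CPM (limma adjusted p = 0.0176 for Dbp and 0.0231 for Per3). The fit has 1 residual degree of freedom, and the spread between mice of 1 group was not measured. That residual is the difference of the TAC ratios between the genotypes (cKO minus CT, -1.98 for Dbp and -1.56 for Per3), which the fit treats as error. The SEs also lean on 10.1 prior degrees of freedom that limma estimates from all genes, so these p-values do not measure the spread between mice.

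At baseline, the library labelled cKO differed from CT in Npas2 and Bhlhe41. Npas2 was 1.07 log2 units higher (ratio interval 1.15 to 4.17) and Bhlhe41 1.24 higher (1.43 to 4.23). These 2 of 10 members were past the rule, beside 5.07% of all genes in either direction, 3.26% higher and 1.81% lower. Scaled to total reads, the share of all genes past the rule that lay on the higher side moved from 64.4% to 74.1%. With a pseudocount of 5 CPM both were under 2-fold, at 0.75 and 0.95. Per1 at -0.81 (0.457 to 0.701), Arntl at -0.73 (0.434 to 0.816) and Nr1d2 at -0.59 (0.524 to 0.836) were lower beyond counting error (19.6% of all genes had intervals that excluded 1), and Dbp was higher at 0.85 (1.05 to 3.25), all under 2-fold. Per3 (0.90), Per2 (0.19), Clock (-0.19) and Nr1d1 (-0.09) had intervals that included 1. Macrophage markers were higher in cKO baseline, at 5 of 8 past the rule with a sum of 930 CPM against 402, and fibroblast markers at 5 of 8. Their part in these ratios was not tested.

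Under TAC, the library labelled cKO had the higher Arntl level and the lower Dbp level. Arntl was 1.20 log2 units higher than in CT TAC (ratio interval 1.39 to 3.99), Npas2 1.29 higher (1.23 to 5.77) and Dbp 1.13 lower (log2 ratio -1.13, 0.333 to 0.610). These 3 of 10 members were past the rule, beside 5.02% of all genes, 2.93% higher and 2.1% lower. Scaled to total reads 3 members were past it too, the median of all genes was 0.10, and the split of all genes past the rule moved from 58.3% to 71.9% on the higher side. With a pseudocount of 5 CPM, Arntl (0.95) and Npas2 (0.87) were under 2-fold and Dbp was the 1 member left. Nr1d2 at -0.88 (0.442 to 0.660) and Per3 at -0.66 (0.403 to 0.943) were also lower beyond counting error, where 20.7% of all genes had intervals that excluded 1. Erythroid markers, 3 of 3 measured, were past the rule on the higher side, with a sum of 2240 CPM against 737, and their part was not tested.

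**Figure D3:**
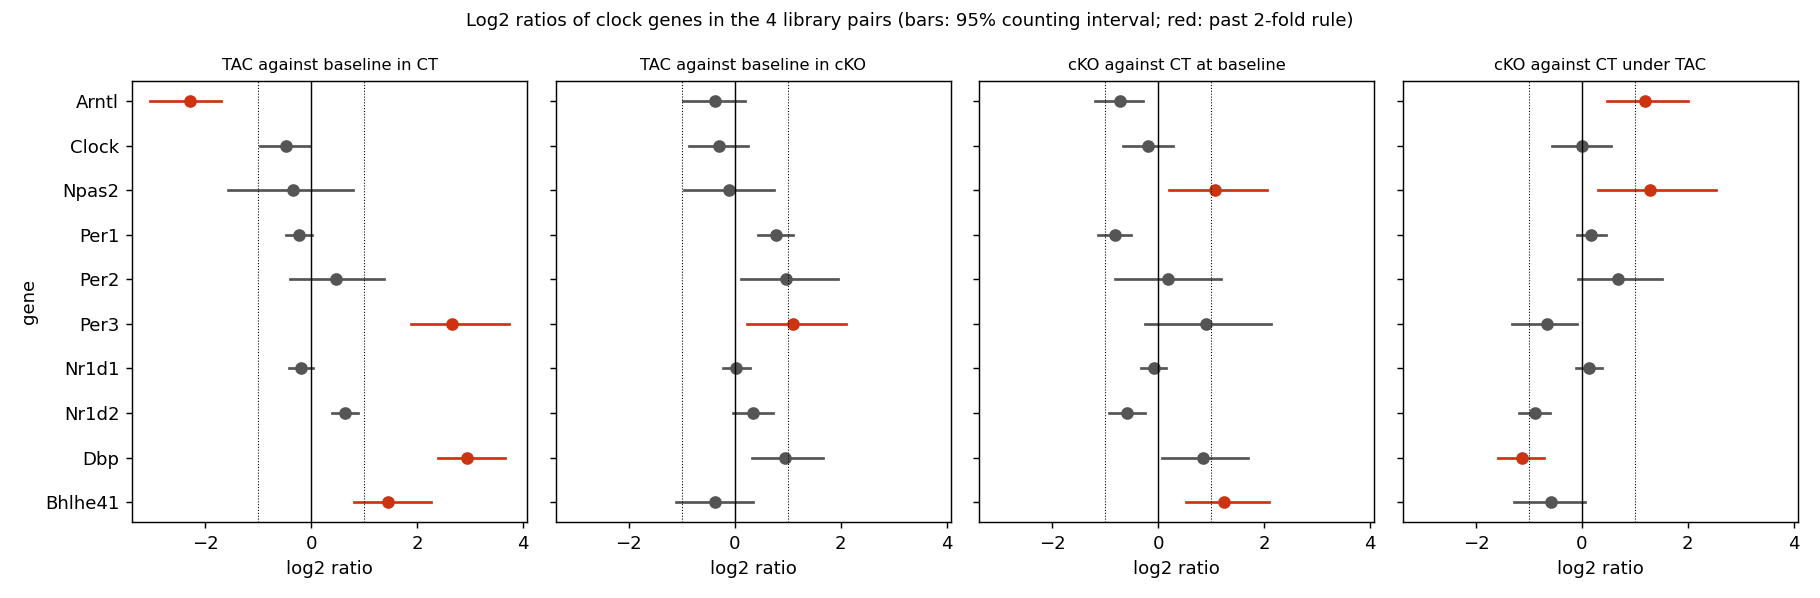
Log2 ratio of each clock gene in the 4 library pairs (points, deposited values), with 95% counting intervals from the reads as bars, dotted lines at 2-fold and red for genes past the rule. The widest departures are Dbp at 2.93, Per3 at 2.67 and Arntl at -2.29 for TAC against baseline in CT.

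Over all 4 libraries the genotype term called 0 of 10 members and 3 of 12408 genes, or 0.0242% (limma, adjusted p under 0.05). At an unadjusted p under 0.05 there were 2 of 10 members, beside 964 genes or 7.77% of all genes. Those 2 were Nr1d2, with a log2 difference of cKO minus CT of -0.73 (SE 0.20, limma adjusted p = 0.438, lower in 2 of 2 states), and Npas2, with 1.18 (SE 0.37, limma adjusted p = 0.516, higher in 2 of 2 states). For Arntl the genotype ratio was -0.73 at baseline and 1.20 under TAC. For Dbp it was 0.85 at baseline and -1.13 under TAC. Each pair of comparisons shares libraries with the others, since CT baseline enters both the CT and the baseline comparison, so the ratios are given side by side only.

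Of 12 further loop genes, 1 was past the rule on the higher side and 1 on the lower side for TAC in CT, where 10.7% of all genes were past it. In each of the other 3 pairs 0 of 12 were past it, where 5.02% to 6.52% of all genes were, so these counts were near those of all genes. Nfil3, a D-box repressor that opposes DBP, was 1.26 log2 units lower in CT TAC (ratio interval 0.285 to 0.582). At baseline it was at 52.3 CPM (44.0 to 61.6) in CT and 44.7 (35.0 to 56.1) in cKO. Under TAC it was at 37.0 (28.7 to 46.9) in cKO and 21.5 (15.5 to 28.9) in CT. The values had the order seen for Arntl, but the intervals of all neighbours in that order overlapped. Rora, an activator of Arntl, was 1.24 higher in CT TAC (1.54 to 3.73). Tef, a relative of DBP, was higher under TAC by 0.44 in CT (1.05 to 1.78) and by 0.93 in cKO (1.33 to 2.90). Bhlhe40, which encodes DEC1, was higher by 0.78 (1.32 to 2.26) and 0.68 (1.19 to 2.17). Cry2, a partner of the PER proteins, was at -0.72 in CT (0.369 to 0.948) and -0.13 in cKO, where the interval included 1. Cry1 (9 to 23 reads), Hlf (5 to 16), Ciart (6 to 16), Arntl2 (3 to 8) and Rorb (1 to 5) had few reads and no interval that excluded 1, and Timeless did not differ beyond counting error in the TAC pairs. Over all 4 libraries limma called 0 of the 12 genes for TAC and 0 for genotype by adjusted p, beside 226 and 3 of all genes. At an unadjusted p under 0.05, 4 of the 12 passed for TAC (Bhlhe40, Rora, Tef and Nfil3), beside 16.2% of all genes, and 1 for genotype (Tef), beside 7.77%.

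Genes known to act downstream of the clock in heart were mostly lower in CT TAC. Of 17 such genes, 6 were past the rule on the lower side, as were 4.67% of all genes, and 0 on the higher side for TAC in CT, with a median log2 ratio of -0.51 against 0.01 over all genes. Klf15, a regulator of rhythmic metabolism and repolarization, was at -2.47 (15 reads against 118), Ucp3, a mitochondrial carrier, at -2.27, Pik3r1, a regulatory subunit of PI3 kinase, at -2.08, and Cdkn1a, the cell cycle inhibitor p21, at -2.04. In cKO the same 4 genes were at -0.51, -0.40, -0.86 and -0.34, and the 1 gene of the list past the rule was Pdk4, which was higher at 1.27 (3.69% of all genes were past it on that side). At baseline 2 of 17 were past the rule in cKO, both lower, beside 1.81% of all genes (Pdk4 with 196 against 1299 reads, and Ucp3 at -2.20), and under TAC 3 of 17, all higher, beside 2.93% of all genes, among them Klf15 at 1.48. Over all 4 libraries limma called 1 of the 17 genes for TAC, beside 1.82% of all genes in either direction and 0.524% lower. That gene, Pik3r1, fell by 1.47 on the log2 scale (SE 0.26, limma adjusted p = 0.0213). That call was lost without the genotype term (limma adjusted p = 0.103), without the trend (0.355) and with a pseudocount of 5 CPM (0.0629).

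Of 18 enzymes and cofactors that act on clock proteins, 2 were past the rule for TAC in CT, a share near the 10.7% of all genes, and both were lower: Nampt, of NAD synthesis, at -1.38, and the deacetylase gene Sirt1, at -1.29. In each of the other 3 pairs 0 of 18 were past it, beside 5.02% to 6.52% of all genes. The casein kinase genes Csnk1d and Csnk1e, which phosphorylate PER proteins, were within 2-fold in all 4 pairs.

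Lists of glucocorticoid, temperature and immediate early responses are given because such signals can act on clock genes from outside the loop. Some genes stand on more than 1 list, so the counts of the lists are not separate observations. Cdkn1a and Pdk4 are on the glucocorticoid list and among the genes downstream of the clock in heart. Nampt and Usp2 are among the latter and among the enzymes and cofactors. Tef and Hlf are among the further loop genes and also among the genes downstream of the clock in heart. Glucocorticoid response genes had 4 of 13 past the rule on the lower side for TAC in CT (median -0.70), beside 4.67% of all genes, among them Zbtb16 at -1.74 and Pdk4 at -2.04. At baseline in cKO 4 of 13 were lower, beside 1.81% of all genes, and 1 higher, beside 3.26% (median -0.58), the last being Lcn2 at 1.76. For TAC in cKO 2 of 13 were higher (median 0.56), beside 3.69% of all genes, and for cKO under TAC 4 of 13 (median 0.43), beside 2.93%. Temperature response genes had 2 of 10 past the rule on the higher side for TAC in each genotype, beside 6.06% of all genes in CT and 3.69% in cKO. The list pools cold-inducible genes with heat-shock genes. In CT the genes past the rule were Rbm3 and a heat-shock gene, and in cKO they were Rbm3 and Cirbp. Hsph1 was past it on the lower side in cKO at -1.18, beside 2.83%. Rbm3, a cold-inducible RNA-binding protein, was higher by 1.19 in CT (27 and 47 reads) and by 3.09 in cKO (7 and 74 reads), and it rose by 2.14 in the fit over all 4 libraries (SE 0.43, limma adjusted p = 0.0362). With scaling to total reads that adjusted p was 0.0505 by limma, and over the other alternatives it lay between 0.0163 and 0.344. Its relative Cirbp was at 0.56 in CT and 1.63 in cKO. Immediate early genes, 11 of 12 measured, had 2 higher and 2 lower for TAC in CT, beside 6.06% and 4.67% of all genes. Egr1 was at 1.94 (18 and 54 reads, baseline first) and Atf3 at -2.52 (14 and 1 reads). The Atf3 ratio thus rests on 1 read in CT TAC, and the other higher gene had 0 reads in CT baseline. For TAC in cKO 2 of the 11 were higher, beside 3.69% of all genes. For cKO at baseline 2 were higher and 2 lower, beside 3.26% and 1.81%, and for cKO under TAC 1 was lower, beside 2.1%. The part of glucocorticoid or temperature responses in the clock gene levels was not tested.

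Likeness to Dbp and Arntl was measured as the Euclidean distance between log2 values centred over the 4 libraries, among 8238 other genes with a mean of at least 10 CPM. Among the nearest to Dbp were Bambi (distance 0.21), Xirp2 (0.55), Dok1 (0.60) and Sparc (0.65). Nearest to Arntl were Lrg1 (0.14), Cdkn1a (0.23), Klf15 (0.31), Fitm2 (0.40) and Pdzd2 (0.47), and Nfil3 ranked 61 (0.73). In the ranking to Dbp, Nfil3 stood at 8009, Rora at 162, Bhlhe40 at 523, Timeless at 1093, Tef at 1258 and Cry2 at 7202. In that to Arntl, Cry2 stood at 527, Timeless at 7137, Tef at 7396, Bhlhe40 at 7452 and Rora at 8010. The measure rests on 4 libraries and is a description only.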

How the data were processed

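Total RNA from mouse hearts was extracted with an RNeasy kit and made into Illumina libraries, per the labels' protocols. CASAVA, HISAT2 and edgeR, with the mm10 build, appear in the submitters' processing notes, which give no role for any of them. The sources used here do not give the counter, annotation, strand setting or gene filter. The authors deposited 1 log2 CPM value per gene and library for 12408 genes; the unit was read from the values, which lie on a grid in each library. The grid shows 1 scaled read added before the logarithm. Reads were recovered by dividing the linear values by the grid step, and between 88.6% and 89.0% of the values in each library came out whole, to within 0.01. In 2449 genes (19.7%) some library had parts of reads, so edgeR was not run on them, and limma was used on the log2 values instead.

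Reads were rounded for exact Poisson intervals of levels and Clopper-Pearson 95% intervals of ratios, which cover counting error only, since PCR copies are not independent molecules. Log2 ratios are differences of the deposited values and understate ratios of genes with few reads. limma (version 3.58.1, R 4.3.3) was fitted to all 12408 genes with a mean-variance trend, additive terms and Benjamini-Hochberg adjustment; the scripts were tested on simulated data. Merged exon lengths and overlaps come from GENCODE M21 on GRCm38. Each library comes from 1 mouse, per the submitters' design text, so no spread within a group was measured. Named genes are all members, all further loop genes, of other lists up to 4 genes past the rule with the largest ratios, and the 5 genes most like Dbp and Arntl, of which some are not reported here; Sav1, Sphk2, Thra and both casein kinase genes stand outside this rule and were chosen after their values were seen. Alternatives were another fold, no interval, scaling to total reads, a pseudocount, a minimum CPM, other model terms, no trend and leaving out each library. Members, lists and tests were chosen with earlier results of these data known.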

Additional observations from a re-analysis of the deposited data

Results flagged for a closer look

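In 6 of the 10 clock genes the ratio of cKO to CT had opposite signs at baseline and under TAC, and in 3 of these the TAC ratio had opposite signs in the genotypes. Over all 12408 genes those shares were 45.6% and 37.7%, so the counts of members are near the background and only the sizes are given. With 1 mouse in each group the difference was not tested between groups, and its 95% interval covers counting error only. The log2 TAC ratio in cKO minus that in CT was 1.93 for Arntl (interval 1.09 to 2.76) and -1.98 for Dbp (-2.85 to -1.11), whose genotype ratios changed sign between the states. It was -1.56 for Per3 (-2.78 to -0.34), also by the genotype ratio, with 0.90 at baseline and -0.66 under TAC. For Bhlhe41 it was -1.82 (-2.79 to -0.85), with TAC ratios of 1.45 in CT and -0.37 in cKO. For Per1 it was 0.99 (0.59 to 1.40), with TAC ratios of -0.22 and 0.77. For Nr1d1 it was 0.22, its interval of -0.11 to 0.56 included 0, and its baseline ratio changed sign with scaling to total reads.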

How the results depend on the processing

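No paired analysis was possible because each group holds 1 mouse. Over the planned settings other than leaving out a library, 164 of 180 member values kept their direction and their side of the rule. Most of them were not past the rule or called at the start, so this count says little of the called values. The fit's differences cannot change without the other term, without the trend or with a minimum CPM, where only the adjusted p can. The TAC calls of Dbp and Per3 were lost 8 times over these settings. Without 1 library, 36 of 80 member differences kept their sign and stayed within 1 SE of the full fit. Scaling to total reads turned 2 uncalled ratios, Nr1d1 at baseline (0.0039) and Clock under TAC (0.0911), and a pseudocount of 5 CPM turned the genotype difference of Per3 (-0.0087); the cause was not tested. Genes past the rule in the 4 pairs (TAC in CT, TAC in cKO, cKO at baseline, cKO under TAC) numbered 1332, 809, 629 and 623. At 1.5-fold they were 2635, 1740, 1342 and 1501, without the interval 2085, 1639, 1293 and 1447, and with a pseudocount of 5 CPM, which shrinks ratios of low genes, 607, 352, 254 and 214. Limma's 226 TAC calls became 20 without the genotype term, 0 without the trend (1544 genes at an unadjusted p under 0.05) and 98 with the pseudocount, and 327 among genes of at least 5 CPM. Its 3 genotype calls became 0 without the TAC term (345 at an unadjusted p under 0.05), 0 without the trend (840) and 9 among genes of at least 5 CPM. Activators minus the other members, by the median, was 2.04 in CT and 0.61 in cKO at baseline. Under TAC it was -2.69 in CT and -0.36 in cKO, where the medians are the levels of Arntl and Dbp alone. Without Bhlhe41, Per1 and Clock the difference of means was -2.77 in CT TAC.

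Without 1 library the fit with both terms leaves no residual degree of freedom, so it gives the ratio of the intact pair and no test. TAC differences then ranged from -0.22 to 0.77 for Per1, -0.19 to 0.0314 for Nr1d1 and -0.37 to 1.45 for Bhlhe41. Genotype differences ranged from -0.73 to 1.20 for Arntl, -0.81 to 0.18 for Per1, -0.66 to 0.90 for Per3, -0.0897 to 0.13 for Nr1d1, -1.13 to 0.85 for Dbp and -0.58 to 1.24 for Bhlhe41. The called TAC differences were 0.95 for Dbp and 1.11 for Per3 without either CT library, and 2.93 and 2.67 without either cKO library. Npas2, Per2, Per3 and Bhlhe41 rest on under 40 reads in most libraries, which limits what their ratios can show.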
